A study of Mus musculus with 4 samples.

Results

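The S100 proteins are small calcium-binding proteins with EF-hand motifs, and 10 of their genes are described here: S100a4, S100a6, S100a8, S100a9, S100a10, S100a11, S100a13, S100a14, S100a16 and S100b. A probe set is a group of short probes read together as 1 signal. Members were taken as all probe sets whose platform annotation gave exactly 1 gene symbol from this list. This gave 13 probe sets for 9 of the 10 genes, of 18194 genes with such a probe set on the array. S100a10 had 3 probe sets, S100a16 and S100b had 2 each, and the other 6 genes had 1. The only probe set of S100a11 also carries the symbols of a pseudogene and of a predicted gene, so S100a11 was not analysed here. Probe sequences were not available, so whether the other probe sets also read further transcripts was not checked.

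The groups were transgenic mice with myocilin, a glycoprotein that cells secrete, in their aqueous humor, and control mice. Eye tissue labelled retina was hybridised to 4 one-colour oligonucleotide arrays, 2 for transgenic and 2 for control animals. Per the labels, control array 2 repeats control array 1 technically, so the controls count as 1 sample. Whether the transgenic arrays came from separate animals is not labelled, and a p-value here then reflects a spread that may be technical. The sources used here do not give the transgene's promoter, the strain or the age of the mice.

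S100 proteins mostly form dimers that bind calcium and then dock onto target proteins inside the cell, among them annexins, cytoskeletal proteins and enzymes. Several members are also released and act on cell-surface receptors such as Toll-like receptor 4 and the receptor for advanced glycation end products. In the eye, different members mark different cells, and S100b is a marker of glia, Schwann cells and melanocytes. S100a8 and S100a9 are abundant in neutrophils and rise in stressed surface epithelium. S100a6, S100a10 and S100a14 are expressed in epithelia.

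The label retina was set against marker genes. All 4 arrays had bright signals for corneal and surface epithelium, with 7 of 10 markers above a mean signal of 1000. All 5 melanocyte markers were bright too, with mean signals from 2785 to 10338. The corneal keratin gene Krt12 had signals of 13020 and 13173 on the transgenic arrays and 11441 and 10972 on the control arrays. Of 7 rod photoreceptor markers, 4 were too dim to be tested, among them Gnat1, the rod transducin subunit, at 21.3 and 12.4 on the transgenic arrays and 14.3 and 33.5 on the control arrays. Sag, the rod arrestin gene, was dim but tested, at 135 and 106 on the transgenic arrays and 148 and 148 on the control arrays. Of 5 Mueller glia markers, 3 had a mean signal above 1000, namely Glul, Rlbp1 and Vim, genes that other eye cells also express. The S100 values below therefore come from tissue with strong signals of corneal and surface epithelium markers and of melanocyte markers. The trimmed mean signal was 150 on all 4 arrays. Of 27 probe sets for poly-A transcripts spiked into the RNA, which belong to no tissue, 18 lay higher on both transgenic arrays, and their median log2 change was 0.24. Whether this difference bears on the S100 values was not tested. In bulk tissue, fewer cells of a type and less RNA per cell cannot be told apart.

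All the S100a genes of the list lie on mouse chromosome 3 and S100b lies on chromosome 10. Promoter windows from RefSeq (GRCm38.p6) are shown for 3 members on chromosome 3, each running from 250 bases before to 50 bases after the annotated gene start and read in the direction of transcription. S100a8 and S100a9 are shown because they encode the subunits of 1 heterodimer and their changes were alike in size, and S100a13 because its unadjusted p was under 0.05 and its window overlaps that of a neighbour described with it. In the windows of S100a8 (plus strand, chr3:90668821-90669120) and S100a9 (minus strand, chr3:90695672-90695971), capitals mark matches to TATAAA, the core of the TATA box, or to GGGCGG, which Sp1 binds. In that of S100a13 (plus strand, chr3:90514185-90514484), they mark the 204 bases that also lie in the window of S100a1, a family member transcribed the opposite way from a start 105 bases away.
S100a8: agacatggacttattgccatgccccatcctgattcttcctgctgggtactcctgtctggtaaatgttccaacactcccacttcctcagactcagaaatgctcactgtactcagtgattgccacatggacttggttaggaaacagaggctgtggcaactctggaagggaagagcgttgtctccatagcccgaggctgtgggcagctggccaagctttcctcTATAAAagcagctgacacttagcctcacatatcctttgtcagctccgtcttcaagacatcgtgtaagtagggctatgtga
S100a9: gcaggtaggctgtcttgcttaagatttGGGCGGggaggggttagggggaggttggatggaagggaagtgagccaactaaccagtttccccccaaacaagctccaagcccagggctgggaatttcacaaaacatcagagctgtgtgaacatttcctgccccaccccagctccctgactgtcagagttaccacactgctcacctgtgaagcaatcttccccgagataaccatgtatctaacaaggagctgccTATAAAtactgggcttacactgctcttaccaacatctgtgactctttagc
S100a13: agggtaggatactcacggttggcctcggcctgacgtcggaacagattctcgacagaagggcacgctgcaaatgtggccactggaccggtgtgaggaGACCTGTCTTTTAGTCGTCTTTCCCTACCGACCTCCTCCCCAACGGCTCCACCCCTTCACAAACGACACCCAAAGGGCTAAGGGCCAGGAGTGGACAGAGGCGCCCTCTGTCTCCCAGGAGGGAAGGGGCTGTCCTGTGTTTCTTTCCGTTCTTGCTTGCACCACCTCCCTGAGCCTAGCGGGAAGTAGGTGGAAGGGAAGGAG

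Both strands of these windows were searched for TATAAA (the TATA box core), for CCAAT (the box bound by NF-Y), for GGGCGG (bound by Sp1) and for TGACTCA (bound by AP-1). TATAAA begins 30 bases before the annotated start in S100a8 and at the annotated start in S100a9. The listed genes have 9 windows in the table, 2 for S100a16 and 1 each for the others except S100a10 and S100a14. TATAAA was found in 3 of these 9 (S100a4, S100a8 and S100a9), against 13.6% of all 32851 windows in the table. GGGCGG was found in 3 of 9 (35.7% of all windows), CCAAT in 2 of 9 (37.4%) and TGACTCA in 1 of 9 (5.20%). The S100a13 window holds none of the 4 motifs. A match is a description of the letters, and these motifs do not overlap each other in the windows shown.

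No S100 gene passed the test between transgenic and control tissue. In limma, 0 of the 13 probe sets had an adjusted p under 0.05, with the adjusted p between 0.540 and 0.988, against 0.0777% of all 27022 probe sets tested. At an unadjusted p under 0.05 there were 2, the brightest S100a10 probe set and S100a13, both higher in transgenic tissue. This is 15.4% of the members, against 7.06% of all probe sets tested. Changes were measured on the log2(signal + 16) scale and 10 of 13 were above 0, with a median of 0.08, against a median of −0.02 over all probe sets tested, 46.9% of which were above 0. Both transgenic arrays lay above both control arrays for 6 of 13 S100 probe sets, where the share over all probe sets tested was 21.1%. Both lay below for 2 of 13, against 23.6%. Probe sets of 1 gene share a target, so the 13 are not independent. Which probe sets had an unadjusted p under 0.05 depended on the scaling. After quantile normalization they were S100a13, again higher, and S100a6, lower at −0.17 (limma unadjusted p = 0.0129). The brightest S100a10 probe set then had an unadjusted p of 0.229 in limma.

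**Figure D1:**
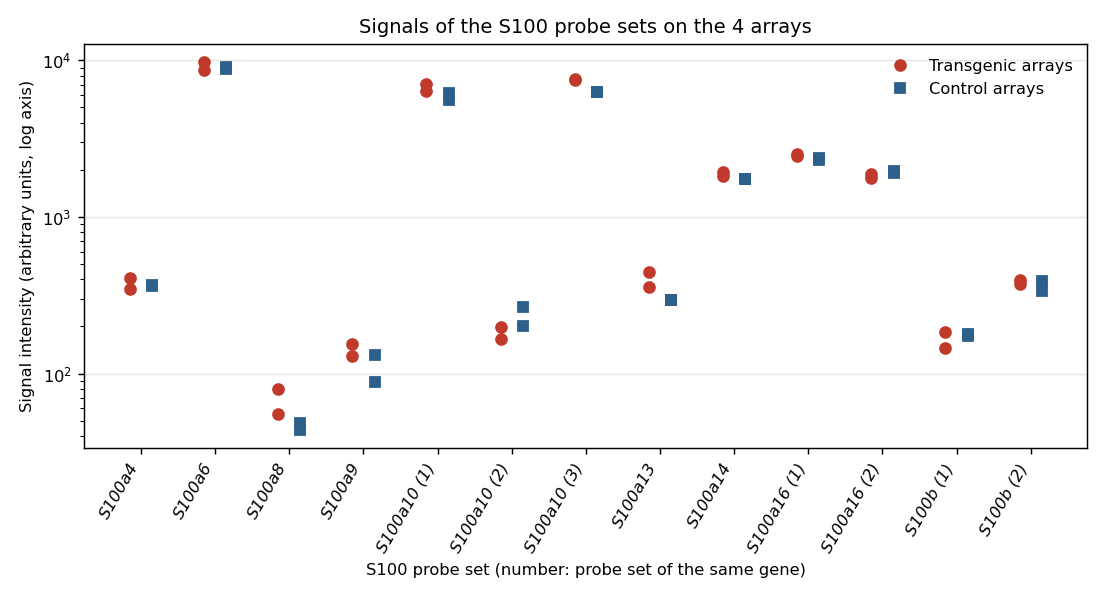
Signal intensity (arbitrary units, log axis) of the 13 S100 probe sets on the transgenic arrays (red circles, left) and the control arrays (blue squares, right), 1 point for each array. Numbers in brackets separate probe sets of 1 gene: S100a10 (3) is 1456642_x_at, S100a16 (1) is 1425560_a_at and S100b (2) is 1434342_at. S100a6 lies between 8740 and 9710 on the 4 arrays, and S100a8 between 43.6 and 79.5.

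S100a10 encodes p11, a family member that does not need calcium to bind its partner annexin A2, with which it forms a tetramer at the plasma membrane. On the brightest of its 3 probe sets (1456642_x_at), signals were 7494 and 7600 on the transgenic arrays and 6297 and 6256 on the control arrays. The groups did not overlap, and the arrays of each group lay close together. The log2 change was 0.27 ± 0.09 (SE), a 1.20-fold difference with a 95% interval from 1.05 to 1.38, and the adjusted p in limma was 0.540. The second probe set (1416762_at) had signals of 6404 and 7065 on the transgenic arrays and 5590 and 6198 on the control arrays, again without overlap. Its change was 0.19 ± 0.10 (limma adjusted p = 0.766). The third probe set (1439348_at) went the other way, also without overlap. Its signals were 165 and 197 on the transgenic arrays and 202 and 265 on the control arrays. That is a change of −0.33 ± 0.18 (limma adjusted p = 0.787) on a dim probe set whose control arrays alone differed by 0.37. The size of the change on the bright probe sets depended on the scaling. After quantile normalization it was 0.08 and 0.03.

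S100a6 encodes calcyclin, an epithelial and fibroblast protein that binds the calcyclin-binding protein Cacybp and several annexins. Its signals were 8740 and 9710 on the transgenic arrays and 8871 and 9088 on the control arrays, so both control arrays lay between the transgenic ones. The change was 0.04 ± 0.10 (limma adjusted p = 0.981), with an interval from 0.884-fold to 1.19-fold. After quantile normalization it was −0.17 (adjusted p = 0.522), so its direction is not settled.

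S100a14 and S100a16 are neighbours in the chromosome 3 cluster and are expressed in many epithelia. S100a14 had signals of 1942 and 1827 on the transgenic arrays and 1744 and 1738 on the control arrays. The groups did not overlap, but the change was only 0.11 ± 0.10 (limma adjusted p = 0.905), with an interval from 0.923-fold to 1.27-fold. It was 0.04 after quantile normalization. For S100a16 the probe sets disagreed in direction, each without overlap between the groups. The first (1425560_a_at) had 2510 and 2434 on the transgenic arrays and 2324 and 2367 on the control arrays, a change of 0.08 ± 0.10 (adjusted p = 0.951) that was −0.01 after quantile normalization. The second (1447676_x_at) had 1873 and 1774 on the transgenic arrays and 1965 and 1910 on the control arrays, a change of −0.09 ± 0.10 (adjusted p = 0.941) that was −0.15 after quantile normalization. Arrays that do not overlap thus occurred in opposite directions for S100a16, as they did for S100a10 above.

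Which cells of this tissue expressed these S100 genes was not measured. Corneal and surface epithelium markers had a median change of −0.18 over 10 genes, with 4 above and 6 below 0. After quantile normalization the median was −0.21, with 1 of the 10 above 0. Their summed signals were 45513 and 48899 on the transgenic arrays and 45978 and 46513 on the control arrays, so the groups overlapped. The largest changes in this list were Trp63, a transcription factor of basal epithelial cells, at −0.37, Krt4, a keratin of mucosal epithelium, at −0.36, Ehf, an epithelial transcription factor, at −0.24, and Krt12 at 0.22. None of the 10 genes passed in limma, where the lowest adjusted p was 0.397 and 3 had an unadjusted p under 0.05, 1 higher and 2 lower. The part of epithelial content in the S100a10, S100a14 and S100a16 values was not tested.

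S100a13 encodes a protein that takes part in the release of fibroblast growth factor 1 and interleukin 1 alpha, which lack a signal peptide. Its signals were 357 and 446 on the transgenic arrays and 297 and 293 on the control arrays. Both transgenic arrays lay above the controls, which differed by only 0.02 on the log2 scale, but the transgenic arrays differed from each other by 0.31. The change was 0.42 ± 0.16 (1.33-fold, interval 1.04 to 1.71), with an adjusted p of 0.631 in limma. S100a8 had nearly the same fitted change, and which of the 2 was larger turned with the scaling and the pseudocount. With transgenic array 1 or 2 alone, the S100a13 change was 0.26 or 0.57. Of the genes for its cargo, Fgf1, chosen for this role after its value was seen, was at 0.06 (limma adjusted p = 0.993) and Il1a was at −0.39 (adjusted p = 0.840).

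S100a1, the head-to-head neighbour of S100a13 and a calcium sensor of muscle and heart, is no member of the list but had probe sets of its own. The brighter (1419814_s_at) had signals of 1691 and 1822 on the transgenic arrays and 1329 and 1356 on the control arrays, with no overlap. The change was 0.38 ± 0.11 (limma adjusted p = 0.399), and on the other probe set (1417421_at) it was 0.22 ± 0.12 (adjusted p = 0.789), also without overlap. S100a1 and S100a13, whose promoter windows share the 204 bases shown above, both lay higher on both transgenic arrays, and neither passed the test. Of all probe sets tested, 21.1% lay higher on both transgenic arrays. Whether the shared bases bear on these values was not tested.

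S100a8 and S100a9 encode the subunits of calprotectin, a zinc- and calcium-binding heterodimer of neutrophils that is also a ligand of Toll-like receptor 4. S100a8 was the dimmest member, at 79.5 and 55.1 on the transgenic arrays and 43.6 and 48.1 on the control arrays. The groups did not overlap, yet the gap between the transgenic arrays, 0.43 on the log2 scale, was as wide as the change of 0.41 ± 0.31 (limma adjusted p = 0.866). S100a9 had signals of 154 and 130.2 on the transgenic arrays and 130.5 and 88.7 on the control arrays, so the groups overlapped. Its change of 0.35 ± 0.21 (adjusted p = 0.812) was smaller than the 0.48 between its technical control replicates. It was 0.59 without control array 1 and 0.11 without control array 2. The S100a8 change was 0.63 with transgenic array 1 alone and 0.20 with array 2 alone. The 95% intervals ran from 0.838-fold to 2.12-fold for S100a8 and from 0.923-fold to 1.76-fold for S100a9, so both no change and a 1.5-fold rise lay inside them.

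Neutrophil markers other than these were mostly dim. Of 9 with a probe set, 6 lay under the filter, including Elane, the neutrophil elastase gene, at 8.69 and 29.0 on the transgenic arrays and 7.28 and 7.23 on the control arrays, and Camp, the cathelicidin gene, at 4.33 and 4.16 on the transgenic arrays and 3.02 and 5.09 on the control arrays. Mpo, the myeloperoxidase gene, was under the filter too. Its signals were higher without overlap, at 37.2 and 30.9 on the transgenic arrays and 19.1 and 20.5 on the control arrays. Cxcr2 was lower without overlap, at 4.21 on both transgenic arrays and 4.69 and 6.94 on the control arrays. Csf3r, Mmp8 and Camp overlapped between the groups. No marker was listed at 0. Their summed signals were 319 and 336 on the transgenic arrays and 270 and 308 on the control arrays. The 3 tested were Mmp9, a matrix protease, at 0.47, Ngp, a granule protein, at −0.05 and Ltf, the lactoferrin gene, at −0.13, with none passing in limma (0 at an unadjusted p under 0.05). Macrophage markers had a median of 0.02 over 8 genes, with summed signals of 2525 and 2437 on the transgenic arrays and 2143 and 2181 on the control arrays. In this list 4 genes were above and 4 below 0, and none passed in limma (0 of 8, against 1 at an unadjusted p under 0.05). The largest changes were Csf1r, the receptor for macrophage colony-stimulating factor, at 0.43 (adjusted p = 0.342), Aif1, a macrophage calcium-binding protein, at −0.24, Adgre1, the F4/80 antigen, at −0.23 and C1qa, a complement subunit, at 0.21. Csf1r alone gave 1198 and 1166 of the summed signal on the transgenic arrays and 908 and 835 on the control arrays, and its other probe sets were at 0.19 and −0.12. What part these cells have in the S100a8 and S100a9 signals was not tested.

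S100a4 encodes a protein of fibroblasts and leukocytes that binds nonmuscle myosin heavy chain. Its signals were 346 and 406 on the transgenic arrays and 368 and 360 on the control arrays, with the controls inside the transgenic range. The change was 0.04 ± 0.15 (limma adjusted p = 0.988), and it was −0.07 with transgenic array 1 alone and 0.15 with array 2 alone. Fibroblast markers in the same tissue had a median change of 0.28 over 7 genes (0.15 after quantile normalization). For 5 of the 7, both transgenic arrays lay above both controls, against 21.1% of all probe sets tested. Kera, the corneal stromal proteoglycan gene keratocan, rose by 1.54 ± 0.11 (limma adjusted p = 0.000286). It was the only 1 of the 7 called, against 0.0777% of all probe sets tested. At an unadjusted p under 0.05 in limma there were 4 of 7, all higher, against 7.06% of all probe sets tested. The summed signals of the fibroblast markers were 27555 and 27774 on the transgenic arrays and 21805 and 20708 on the control arrays, without overlap. S100a4 did not show such a gap between groups. Whether it differs from the fibroblast markers was not tested.

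S100b, the glial and Schwann cell member, had 2 probe sets that both overlapped between the groups. The brighter (1434342_at) had signals of 396 and 371 on the transgenic arrays and 390 and 336 on the control arrays, a change of 0.08 ± 0.14 (limma adjusted p = 0.966). The other (1419383_at) had 146 and 185 on the transgenic arrays and 174 and 180 on the control arrays, a change of −0.10 ± 0.20 (adjusted p = 0.971). Both directions turned when 1 array was left out, to −0.02 without control array 2 and to 0.06 without transgenic array 1. Schwann cell and glia markers had a median of −0.22, with 5 of 6 genes below 0 (4 of 6 after quantile normalization) and summed signals of 2628 and 2550 on the transgenic arrays and 2698 and 2860 on the control arrays. The farthest, Erbb3, a neuregulin receptor listed here for Schwann cells, was at −0.57 (limma adjusted p = 0.231). In limma it was the only 1 of the 6 at an unadjusted p under 0.05, and 0 passed. Pmp22, the brightest of the list, went the other way, at 0.15 (limma adjusted p = 0.842) and without overlap. Its signals were 1496 and 1529 on the transgenic arrays and 1313 and 1403 on the control arrays. Melanocyte markers had 5 of 5 above 0, a median of 0.21 that was 0.024 with 3 of 5 above 0 after quantile normalization, and Tyr, the tyrosinase gene, at 0.44 (adjusted p = 0.259) on its brightest probe set and at 0.15 and 0.09 on the others. Summed signals of the melanocyte list were 33158 and 36229 on the transgenic arrays and 29873 and 29936 on the control arrays. Both transgenic arrays lay above both controls for all 5 genes, against 21.1% of all probe sets tested. In limma 0 passed and 3 of 5 had an unadjusted p under 0.05, against 7.06% of all probe sets tested. How these cell types share the S100b signal was not tested.

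**Figure D2:**
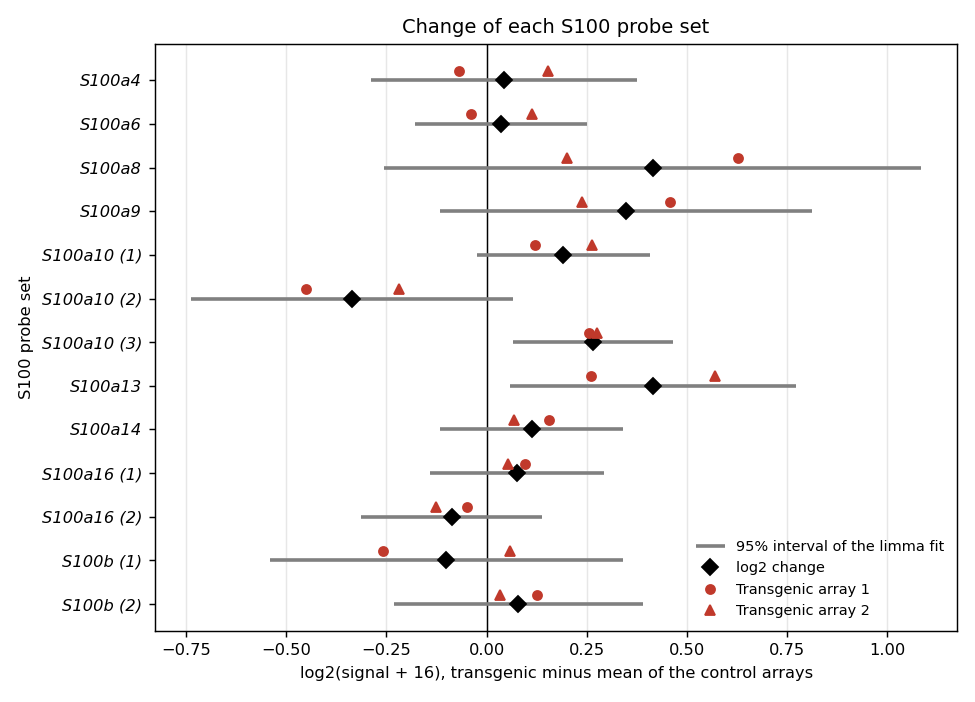
Log2 change of each S100 probe set, transgenic minus the mean of the control arrays (x axis, log2(signal + 16)). Black diamonds are the fitted change with its 95% interval in grey, and red symbols are the single transgenic arrays; 11 of the 13 intervals include 0, and those of S100a13 and of the brightest S100a10 probe set do not.

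Standard errors were from 0.09 to 0.10 for the 6 probe sets with a mean signal above 1000 and from 0.20 to 0.31 for the 3 below 200. The fit ties them to the signal through its intensity trend. Without that trend the unadjusted p was 0.182 for the brightest S100a10 probe set and 0.114 for S100a13. For 9 of the 13 probe sets the 95% interval lay within a 1.5-fold difference in either direction. The intervals rest on 1 residual degree of freedom, with the spread shared across the array. The median gap between arrays of a group was 0.15 for transgenic and 0.04 for control arrays over the S100 probe sets, and 0.17 and 0.15 over all probe sets tested. The absolute change was larger than both gaps for 6 of 13 S100 probe sets, namely 2 of S100a10, both of S100a16, S100a13 and S100a14, against 32.2% of all probe sets tested.

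The partners that S100 proteins bind were also without calls. Of 13 partner genes with a probe set, 12 were tested and 0 passed in limma, with 3 at an unadjusted p under 0.05, 1 higher and 2 lower. The median change was −0.0043, with 6 above and 6 below 0, and after quantile normalization it was −0.12, with 4 above and 8 below. Anxa2, the annexin of the S100a10 tetramer, had signals of 8688 and 8568 on the transgenic arrays and 8350 and 8306 on the control arrays. Its change of 0.05 ± 0.09 (limma adjusted p = 0.966) was without overlap but small. Anxa1, the annexin A1 gene, was at 0.05 ± 0.10 (adjusted p = 0.967) and Cacybp, the S100a6 partner, at 0.21 ± 0.12 (adjusted p = 0.790). Anxa1 and Anxa2 both lay below 0 after quantile normalization. Myh9, a nonmuscle myosin heavy chain gene, was at −0.13 ± 0.18 (limma adjusted p = 0.953) on its brightest probe set, with overlap. Its other probe sets were lower without overlap, at −0.11, −0.36, −0.45 and −0.57. The limma unadjusted p was 0.0223 for the change of −0.45 and 0.00534 for that of −0.57 (adjusted p = 0.614 and 0.422). Anxa1, Anxa2, Cacybp and Myh9 were named for their roles after their values were seen.

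Ahnak, a giant scaffold protein that docks onto the S100a10 and annexin A2 complex, went the opposite way to the bright S100a10 probe sets. On its brightest probe set it had 3021 and 3115 on the transgenic arrays and 4089 and 4104 on the control arrays. The arrays of each group lay close together and the groups did not overlap, for a change of −0.42 ± 0.10 (limma adjusted p = 0.285). Its other tested probe sets, both dim, were at 0.12 and −0.01. The remaining largest changes were Syt1, a synaptic calcium sensor that joins the S100a13 release complex, at −0.49 (limma adjusted p = 0.675), Il1a at −0.39 and Sugt1, a co-chaperone bound by S100a6, at 0.34 (adjusted p = 0.612). A second probe set of Sugt1 stood at 0.49.

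Receptors of released S100 proteins were measured for 7 genes. Ager, the receptor for advanced glycation end products, was under the filter, at 15.1 and 23.3 on the transgenic arrays and 2.64 and 13.6 on the control arrays. None of the 6 tested passed in limma (0 of 6, and 1 at an unadjusted p under 0.05), and their median was 0.10. That 1 was Bsg, which encodes basigin, at 4851 and 4892 on the transgenic arrays and 3776 and 4094 on the control arrays, a change of 0.31 ± 0.09 (adjusted p = 0.451). Myd88, the adaptor of Toll-like receptors, was at −0.20, Tlr4 at 0.16 and Cd14, a Toll-like receptor 4 co-receptor, at 0.11.

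**Figure D3:**
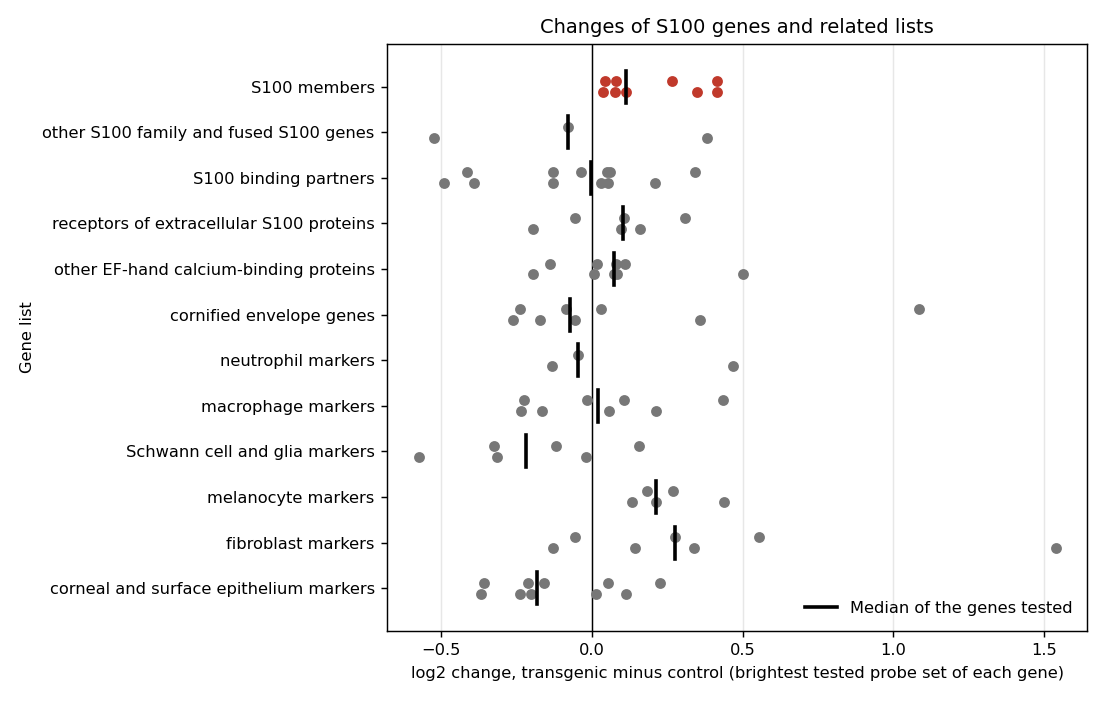
Log2 change (x axis, transgenic minus control) of the genes in the S100 list (red) and in related lists (grey), each point 1 gene on its brightest tested probe set, with black bars for medians. The median is 0.11 for the 9 S100 genes, −0.0043 for the binding partners and 0.28 for the fibroblast markers, where the point at 1.54 is Kera.

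On the brightest probe set of each gene, all 9 S100 genes were above 0, with a median of 0.11. After quantile normalization 7 of 9 were, without S100a6 and S100a16, and the median was 0.079. The choice of the brightest probe set leaves out all 3 S100 probe sets that were below 0 in the main fit. Over all probe sets tested, 46.9% were above 0. In the rest of the family, 9 genes had a probe set and 3 were tested, with 0 passing in limma and 1, S100a1, at an unadjusted p under 0.05. S100a3, best known from hair cuticle, had signals of 144 and 95.8 on the transgenic arrays and 172 and 180 on the control arrays, a change of −0.52 ± 0.24 (adjusted p = 0.708) without overlap. Tchh, the trichohyalin gene, was at −0.08. S100a5 and S100g were under the filter, S100g at 0.597 and 1.25 on the transgenic arrays and 0.914 and 1.26 on the control arrays.

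For other EF-hand genes outside the family the median was 0.07 over the 9 tested, 7 of them above 0 (0.011 and 5 after quantile normalization), and 0 passed in limma (1 at an unadjusted p under 0.05). Pvalb, the parvalbumin gene of fast muscle and some neurons, had the largest change, at 801 and 733 on the transgenic arrays and 533 and 540.0 on the control arrays. Its change was 0.50 ± 0.12 (limma adjusted p = 0.318), without overlap. Calb2, the calretinin gene, was at −0.20, Calb1, the calbindin gene, at −0.14 and Capns1, the calpain small subunit gene, at 0.11. Cornified envelope genes, which share the chromosomal neighbourhood or the epithelial role of the S100a genes, had a median of −0.07, with 8 of them tested. None passed in limma (0 of 8, against 2 at an unadjusted p under 0.05, 1 higher and 1 lower). Lor, the loricrin gene, was at 122 and 174 on the transgenic arrays and 38.7 and 90.6 on the control arrays, a change of 1.08 ± 0.25 (adjusted p = 0.273) with a gap of 0.96 between the control arrays. A second Lor probe set (1420184_at), under the filter, lay the other way without overlap, at 16.2 and 11.4 on the transgenic arrays and 22.3 and 36.3 on the control arrays, and the other was dimmer still. Ivl, the involucrin gene, was at 0.36, Ppl, the periplakin gene, at −0.26 and Cnfn, the cornifelin gene, at −0.24.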

How the data were processed

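The authors deposited a linear intensity for each of 45101 probe sets and array. No label or header names the software behind it. The 2% trimmed mean of the intensities was 150 on all 4 arrays, as scaling every array to a common target would give. It therefore cannot show whether further scaling was needed. The intensities were used as deposited. Precision is limited by how few arrays there are.

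Genes were named from the platform annotation, in which 34958 probe sets had 1 symbol, 932 several and 9211 none. After 64 array controls were left out, intensities were transformed as log2(signal + 16) and probe sets with a mean above the 40th percentile, a signal of about 30.0, were tested. Control arrays were averaged into 1 sample. The fit used limma 3.58.1 in R 4.3.3 with an intensity trend in the moderation. Tests were two-sided, with Benjamini-Hochberg adjustment over all 27022 tested probe sets and calls at an adjusted p under 0.05. It had 1 residual and 10.3 prior degrees of freedom, and it takes the spread of the transgenic samples for the single control sample too. On simulated data the fit made more false calls than that threshold allows in most draws.

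The members and gene lists were chosen with earlier results of these data known. Every member is named, and in each other list at most 4 genes by absolute change, each by its brightest tested probe set, except where a gene is said to be chosen for its role or level. Markers of adipocytes, endothelium and Mueller glia were measured too. Their medians were 0.59 over 1 gene, −0.05 over 4 genes and 0.09 over 5 genes (−0.013 after quantile normalization), and rod markers had −0.15 over 3. Alternatives covered the scaling, the pseudocount, the filter, the moderation, the replicate block and leaving out each array.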

Additional observations from a re-analysis of the deposited data

How the results depend on the processing

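The count of S100 probe sets past the threshold was 0 in limma under all alternatives run but the fit of 4 arrays as separate samples with the replicate number as a block, where 3 passed, all higher in transgenic tissue (both bright S100a10 probe sets and S100a13). That fit counts technical control replicates as samples. Without the block it gave 0 of 13. At an unadjusted p under 0.05 there were between 0 and 5. Same-numbered arrays deviated with a correlation of 0.10 over the probe sets tested, and the numbers were not taken to pair them. Over all probe sets the count was 21, and it was 39 after quantile normalization, 56 after centring on the median, 135 for 4 separate arrays without the block, 1740 with the replicate block, 0 without the filter (2181 at an unadjusted p under 0.05) and 0 without the intensity trend (1059). Leaving out 1 array gave between 14 and 33 calls, 33 without control array 2. Leaving out a transgenic array left no residual degrees of freedom and gave values only. The median S100 change of 0.080 was 0.041 after quantile normalization, 0.11 after centring and between 0.089 and 0.12 with 1 array left out. Directions turned in 6 of 104 values from settings that can move the change: after quantile normalization for S100a6 (−0.17) and S100a16 (−0.0063), and with 1 array left out for both S100b probe sets (from −0.26 to 0.057 and from −0.023 to 0.18), S100a4 (from −0.068 to 0.15) and S100a6 (from −0.039 to 0.11). The cause was not tested. Of called higher and lower probe sets, 15 and 6 in the fit reported, 20 and 19 were found after quantile normalization and 47 and 9 after centring. Dim probe sets such as S100a8 and S100a9 allow no finer statement than their intervals.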
